A study of Rattus norvegicus with 16 samples.

Results

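The hearts of male newborn pups of the Hypertrophic Heart Rat (HHR), an inbred strain whose heart enlarges through the joint effect of several genes, were set against those of males of its control strain, the Normal Heart Rat (NHR). All pups were 2 days old, no pup was treated, and each of the 4 HHR males and 4 NHR males gave 1 one-colour Agilent miRNA array from 100 ng of total RNA. The labels describe the HHR heart as enlarged, and they name the tissue as the whole heart in one place and as ventricles freed of the atria in another. Of the 677 rat miRNAs on the array, 222 were detected on at least 4 of these 8 arrays and are described here. Within the 222, 189 were detected on all 8 arrays and 10 on exactly 4, while 423 of the 677 were detected on none of the 8.

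miRNAs are short RNAs cut as 1 or both arms from a hairpin, and they repress mRNAs that pair with their seed, bases 2 to 8 from the 5′ end. Many lie in introns of protein-coding genes or in clusters that are transcribed together. In the heart, miR-1, the miR-133 family, miR-208 and miR-499 belong to the muscle programme, while others, such as miR-126 of endothelium or miR-150 of lymphocytes, mark other cells of the tissue.

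After multiple-test adjustment 20 of the 222 miRNAs passed the test of HHR against NHR males (9.01%); 5 rose (2.25%) and 15 fell (6.76%) in HHR. Those that rose were miR-34a, both arms of the miR-378 hairpin, miR-218 and miR-598-3p. Those that fell were 5 miRNAs of 1 cluster inside the chloride transporter gene Clcn5 (miR-500, both arms of miR-532 and both of miR-362), and further miR-466b, miR-192, miR-219-5p, miR-210, miR-150, miR-497, miR-499, miR-326, miR-126 and miR-181d. Of these, miR-466b was detected on NHR arrays only and reached the 222 through them alone. The test was limma's moderated test on log2 levels with Benjamini-Hochberg adjustment over the 222, threshold 0.05, and every adjusted p below is from it.

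RefSeq's rat sequences (GRCr8 build) held 17 of these 20 mature miRNAs. None is printed for miR-150, miR-362 or miR-598-3p. Sequences are given 5′ to 3′ with the seed in capitals. Array names follow an older nomenclature, in which an asterisk marks the less abundant arm, and were matched to RefSeq's arm names by hand. The miRNAs higher in HHR come first, with miR-34c, which was detected on 3 of the 8 arrays and so fell just outside the set, beside miR-34a, whose seed it shares.
miR-34a: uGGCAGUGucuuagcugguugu
miR-34c: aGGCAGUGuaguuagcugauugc
miR-378: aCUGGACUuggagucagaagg
miR-378*: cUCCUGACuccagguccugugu
miR-218: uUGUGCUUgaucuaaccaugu

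The Clcn5 cluster is shown next because 5 of its members fell, and the 4 of these with a sequence have different seeds. miR-501-3p, which the array's names do not list, has the seed of miR-500 and differs from it at 4 of the 22 bases compared, so signal of the miR-500 probes could come from either.
miR-500: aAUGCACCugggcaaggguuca
miR-501-3p: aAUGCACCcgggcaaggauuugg
miR-532-5p: cAUGCCUUgaguguaggacugu
miR-532-3p: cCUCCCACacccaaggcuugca
miR-362*: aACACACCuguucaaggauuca
miR-188: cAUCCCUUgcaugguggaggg

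Other miRNAs lower in HHR fall into seed families with members that did not pass the test. miR-497 shares its seed with miR-195, miR-16, miR-15b and miR-322, and miR-181d shares its seed with miR-181a, miR-181b and miR-181c. miR-499 and miR-208b-3p, both from myosin genes, differ at the last base of the seed.
miR-497: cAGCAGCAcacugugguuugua
miR-195: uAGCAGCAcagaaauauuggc
miR-16: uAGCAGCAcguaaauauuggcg
miR-181d: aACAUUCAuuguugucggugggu
miR-181c: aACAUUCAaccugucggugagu
miR-499: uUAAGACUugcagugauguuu
miR-208b-3p: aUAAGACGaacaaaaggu
miR-126: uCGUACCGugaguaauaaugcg
miR-210: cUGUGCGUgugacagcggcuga
miR-466b: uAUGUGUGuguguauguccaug
miR-192: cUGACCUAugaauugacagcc
miR-219-5p: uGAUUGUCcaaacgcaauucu
miR-326: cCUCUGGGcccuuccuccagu

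Before scaling, the 75th percentile of signal lay between 386.5 and 496.9 on the HHR arrays and between 282.3 and 473.8 on the NHR arrays, where replicates 1 and 3 were the dimmest (difference 63.2, two-sided exact permutation test over 70 splits, adjusted p = 0.429 over 3 summaries). The arrays detected 204 to 235 miRNAs in HHR and 200 to 239 in NHR (adjusted p = 0.771, same exact test). The 10 brightest miRNAs held 45.0 to 45.7% of the signal in HHR and 45.5 to 46.4% in NHR (adjusted p = 0.343, same exact test, whose smallest possible unadjusted p is 0.0286). Signals below are scaled to a common 75th percentile over 266 probes well above background on all 8 arrays. The median log2 difference, HHR minus NHR, over all 222 was -0.087, with 59 positive and 163 negative. Other scalings moved that median by up to 0.26, so a small difference has to be read against it. The call split 5 higher to 15 lower (75% lower) became 20 to 14 with quantile normalization (41.2% lower), 24 to 9 with median centring (27.3% lower), 49 to 9 with the percentile taken over all probes (15.5% lower) and 2 to 1 with no scaling (33.3% lower).

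**Figure D1:**
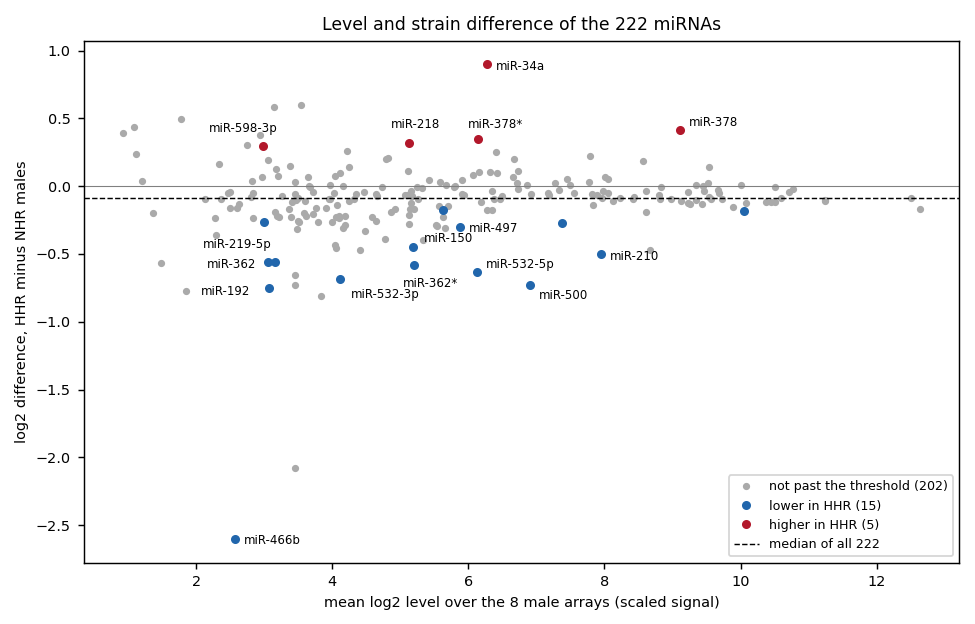
Mean log2 level over the 8 male arrays (x axis, scaled signal) against the log2 difference HHR minus NHR (y axis) for the 222 miRNAs. Red points are the 5 higher and blue points the 15 lower in HHR past the threshold, grey points the other 202, and the dashed line is the median of all, -0.087; miR-34a stands alone above and miR-466b lies lowest.

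miR-34a is induced by p53 and represses genes of the cell cycle and of cell survival. Its scaled signal was 104.0, 104.9, 99.6 and 112.3 in the HHR males and 57.7, 53.1, 53.0 and 62.4 in the NHR males. No array of one strain came near the other: the lowest HHR array stood well above the highest NHR array. The log2 difference was 0.90 ± 0.067 (SE, n = 4 each), 1.86-fold, with an adjusted p of 7.6e-05. It was the largest rise among the 222, and it passed the test under all 4 other scalings, from 0.94 to 1.15. The call was lost in the authors' deposited table and within each slide, which held 2 arrays a strain. Of the other names of the family, miR-34b was detected on 2 arrays and miR-34c* on none, and miR-34c, detected on 2 HHR and 1 NHR arrays, had mean signals of 4.98 and 6.04.

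Both arms of the miR-378 hairpin rose. The hairpin lies within Ppargc1b, which encodes a coactivator of oxidative metabolism, and miR-378 itself is abundant in muscle and is known to act on energy metabolism. miR-378 gave 671.7, 692.0, 601.2 and 590.0 in HHR and 492.5, 473.7, 473.6 and 469.0 in NHR. The groups did not overlap, and the difference of 0.42 ± 0.062 (1.34-fold) had an adjusted p of 0.0035. Its partner miR-378* was dimmer, at 81.9, 85.8, 77.8 and 74.7 in HHR and 65.9, 58.3, 64.6 and 62.3 in NHR. The partner's groups also stood apart, by 0.35 ± 0.062 (1.28-fold, adjusted p = 0.0081). Both calls were lost with no scaling, in the authors' deposited table and within each slide. That of miR-378* was also lost with a normexp background and with replicate number as a block. Both arms are cut from 1 transcript and are not separate replicates of the rise.

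miR-218 comes from introns of the Slit genes, which encode guidance ligands of nerves and vessels, and its second copy lies within Slit3. It read 38.5, 39.8, 38.4 and 39.7 in HHR and 35.2, 30.2, 30.7 and 29.4 in NHR. The 4 HHR values lay within a narrow band above all NHR values (0.32 ± 0.062, 1.25-fold, adjusted p = 0.014). The call was lost with no scaling, with a normexp background and with replicate number as a block. It was also lost in the authors' deposited table and within each slide. miR-598-3p, hosted by Xkr6, rose by 0.30 ± 0.073 (adjusted p = 0.040), from 7.25, 6.84, 6.64 and 7.70 in NHR to 7.91, 8.49, 9.20 and 9.35 in HHR. It was well above background on 2 HHR arrays and 1 NHR array, and the call ended without any 1 of 6 arrays (HHR replicate 2, 3 or 4, NHR replicate 1, 2 or 3), with adjusted p up to 0.11.

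**Figure D2:**
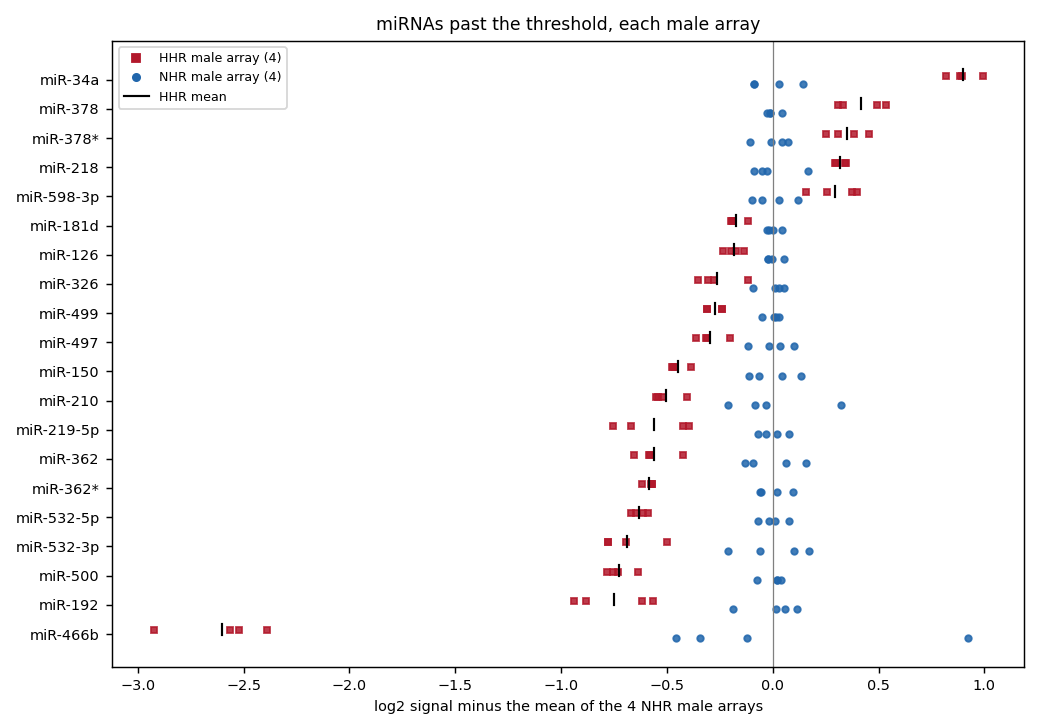
Each male array's log2 signal minus the mean of the 4 NHR males (x axis) for the 20 miRNAs past the threshold (y axis); red squares are HHR arrays, blue circles NHR arrays, black bars the HHR mean. The 2 strains do not overlap in any of the 20, and miR-466b has the widest spread among the NHR arrays.

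Among the 222, 41 miRNAs (18.5%) had strains that did not overlap, 8 with all HHR arrays above and 33 with all below, and the 20 called ones were among these 41. Of the calls with both strains well above background on at least 1 array, 4 differed by at least 1.5-fold: miR-34a, miR-500, miR-532-5p and miR-532-3p.

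The miRNAs nearest outside the threshold, named after their values were seen, were miR-490*, miR-672 and miR-195. miR-490*, of a hairpin known from the muscarinic receptor gene Chrm2, read 94.4, 101.5, 92.03 and 84.1 in HHR and 80.8, 75.3, 80.7 and 74.8 in NHR (0.25 ± 0.065, adjusted p = 0.05004). miR-672 read 10.1, 10.8, 12.1 and 10.004 in HHR and 17.0, 30.5, 15.2 and 16.0 in NHR (-0.81 ± 0.21, adjusted p = 0.053). In both, the strains did not overlap, and NHR replicate 2 stood above the other NHR arrays for miR-672.

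The Clcn5 cluster held 5 of the 15 lower miRNAs. Clcn5 encodes an endosomal chloride and proton exchanger, and RefSeq places the miR-188, miR-362, miR-500 and miR-532 genes within it. Of 7 cluster names on the array, 6 were among the 222. Of these 6, 5 fell and none rose, beside 6.76% of all 222 that fell and 2.25% that rose. The median difference of the 6 was -0.64 (-0.61 with the dim miR-188 at its bound) against -0.087 for all miRNAs. miR-501 was detected on no male array. These miRNAs were chosen as a group with earlier results of these data known, and they may share 1 transcript.

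miR-500 read 91.3, 99.1, 89.5 and 93.1 in HHR and 158.5, 156.3, 156.2 and 146.3 in NHR. miR-532-5p read 55.3, 57.5, 54.4 and 56.6 in HHR and 91.4, 82.4, 87.3 and 85.5 in NHR. For both, every HHR array was far below every NHR array and the spread within a strain was small: miR-500 fell by 0.73 ± 0.050 (1.66-fold) and miR-532-5p by 0.63 ± 0.046 (1.55-fold), each with an adjusted p of 7.6e-05. The other arm of the same hairpin, miR-532-3p, gave 12.8, 15.5, 13.5 and 12.8 in HHR and 23.5, 21.0, 24.6 and 18.9 in NHR. It fell by 0.69 ± 0.10 (1.61-fold, adjusted p = 0.0033), so the arms of miR-532 moved alike although their signals differed.

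The miR-362 hairpin also fell with both arms. miR-362* read 30.2, 30.1, 29.2 and 30.2 in HHR and 48.0, 45.5, 43.2 and 43.0 in NHR, a fall of 0.58 ± 0.048 (1.499-fold, adjusted p = 0.00012). miR-362 was dim, at 6.79, 6.76, 7.57 and 6.43 in HHR and 11.3, 10.6, 9.28 and 9.51 in NHR (fall of 0.56 ± 0.080, 1.48-fold, adjusted p = 0.0033). miR-188 did not pass the test (adjusted p = 0.13). Its HHR arrays, at 6.77, 8.83, 10.3 and 9.39, overlapped the NHR arrays at 14.4, 10.2, 20.8 and 11.7, and it was well above background on no HHR array. Against the lowest signal of probes well above background, the NHR mean was at least 1.13-fold higher. For miR-188, which did not pass, this bound on means has no error attached and shows no strain difference. Its highest arrays, NHR replicates 1 and 3, were also the dimmest before scaling; the part of brightness in this was not tested. The 5 calls of the cluster held under 3 of the 4 other scalings, with medians from -0.52 to -0.40. With no scaling the median was -0.39 and none passed. All 5 calls were also lost within slide 1 and in the authors' deposited table. Those of miR-362 and miR-532-3p were lost with a normexp background and within slide 2 as well, and that of miR-362 with the total gene signal.

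**Figure D3:**
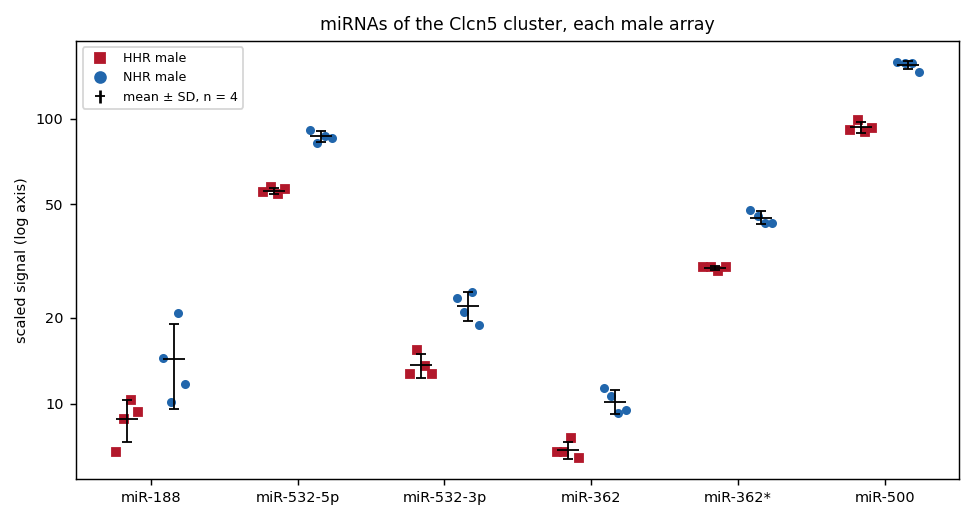
Scaled signal (y axis, log scale) of the 6 Clcn5-cluster miRNAs on each of the 4 HHR male (red squares) and 4 NHR male (blue circles) arrays, with mean ± SD. The strains are apart in 5 of the 6 and overlap in miR-188.

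Across all hairpins, 33 had both arms among the 222. Both arms passed the test in 3 (miR-362, miR-378 and miR-532) and 1 arm in 2 (miR-126 and miR-150). The arms had the same sign in 26. Of all 222 differences 163 were negative and 59 positive, so many pairs share a sign without sharing a hairpin. Over the 33 hairpins the differences of the arms correlated at Pearson's r = 0.54 and Spearman's rho = 0.61, given as a description, since arms share arrays, scaling and a transcript. Over the 24 hairpins whose arms were both well above background on at least 1 array of each strain, 19 had arms of the same sign, with r = 0.85 and rho = 0.69. Among these 24, both arms differed by at least 0.35 only in the called miR-362, miR-378 and miR-532. How far r rests on these 3 was not tested. In miR-3584 neither arm passed the test (adjusted p = 0.15 for the 5p and 0.41 for the 3p arm). The 3p arm was well above background on no array and the 5p arm on no HHR array and 2 NHR arrays. The 5p arm read 16.0, 4.06, 60.3 and 63.8 in NHR and 4.52 to 6.25 in HHR, so 1 NHR heart was at the HHR level and 3 were above it.

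miR-466b belongs to a rodent family of closely related miRNAs in an intron of Sfmbt2, a Polycomb-related gene, so that probes may read more than 1 member. It was detected on none of the HHR arrays and on all 4 NHR arrays, where it was well above background on 3. It read 2.47, 1.93, 2.80 and 2.55 in HHR and 13.4, 27.8, 10.65 and 11.6 in NHR. Against the lowest signal of probes well above background it was at least 1.201-fold higher in NHR, and the measured means were 2.44 in HHR and 15.9 in NHR. The adjusted p of 0.0010 (limma) is for the difference of measured signals, undetected in HHR, and not for this bound. This miRNA met the rule of at least 4 detected arrays through NHR alone, so its call is no separate support for a fall. A floor on low signals 4 times higher ended the call. Of 2 other miR-466b names in the set, miR-466b-1* differed by -0.45 ± 0.21 and did not pass (adjusted p = 0.20), and miR-466b-2* was well above background on no array (adjusted p = 0.84).

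miR-192 and miR-219-5p are known from other tissues, miR-192 from gut, kidney and liver and miR-219-5p from oligodendrocytes of the brain. Both were dim: neither was well above background on any HHR array, and each was on 2 NHR arrays, so no fold is given. miR-192 read 7.40, 7.13, 5.70 and 5.93 in HHR and 11.4, 11.1, 11.8 and 9.60 in NHR (adjusted p = 0.0033). miR-219-5p read 8.10, 8.26, 6.82 and 6.44 in HHR and 10.6, 10.4, 11.5 and 11.01 in NHR (adjusted p = 0.0047). In both the NHR arrays were all above the HHR arrays. The call of miR-192 held under 3 of the 4 other scalings and was lost with no scaling. It was also lost with the total gene signal, with a normexp background, in the authors' deposited table and within each slide. The call of miR-219-5p held under 1 of the 4 other scalings, median centring. It was also lost within slide 1 (adjusted p = 0.13) and in the authors' deposited table (0.71). A normexp background ended it too, as did the total gene signal used in place of the processed signal (0.061). Of the 12 names of epithelium, brain, liver and pancreas, 10 did not reach the 222, among them miR-122 of liver, miR-124 of neurons, miR-141 and the miR-200 family of epithelium and miR-375 of pancreas, each detected on no male array; the other member, miR-128, had means of 55.7 in both strains. miR-194, whose second gene neighbours that of miR-192, was also detected on none.

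miR-210 is the miRNA most tied to hypoxia, being induced by hypoxia-inducible factor. Its signal was 221.2, 200.3, 204.7 and 201.6 in HHR and 287.1, 253.2, 276.7 and 366.9 in NHR. The NHR hearts were spread more widely but all lay above the HHR hearts (fall of 0.50 ± 0.11, 1.42-fold, adjusted p = 0.025). The call ended without any 1 of HHR replicate 2, 3 or 4 or NHR replicate 1 (adjusted p up to 0.074), with the difference staying between -0.57 and -0.40, and it held under 1 of the 4 other scalings.

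Of the 6 muscle miRNAs in the set, miR-499 alone passed the test, and it fell, beside 6.76% of all 222 that fell. miR-499 lies within the myosin gene Myh7b and acts in the slow muscle programme. It read 154.9, 155.0, 147.4 and 147.7 in HHR and 183.7, 186.8, 184.6 and 176.5 in NHR. These groups were tight and apart, by 0.27 ± 0.042 (1.21-fold, adjusted p = 0.0036), yet the call held under 1 of the 4 other scalings and ended without NHR replicate 3 (-0.23, adjusted p = 0.078). The other 5 differed by -0.17 to -0.086 and did not pass. miR-1 had means of 5663 ± 185 in HHR and 6014 ± 141 in NHR (SD, adjusted p = 0.22) and miR-133a means of 292.4 ± 9.39 and 310.5 ± 13.4 (adjusted p = 0.26). miR-133b was at -0.17 ± 0.062 (adjusted p = 0.13). For miR-208b-3p, hosted by the slow myosin gene Myh7, the difference was -0.098 ± 0.085 (adjusted p = 0.48). The median of the 6 was -0.12, and under the 4 other scalings it was positive, from 0.0060 to 0.14. miR-208, of the Myh6 gene, was detected on no male array although miR-208* was detected on all 8, and miR-206 of skeletal muscle was detected on 1.

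The miR-15 family acts on cyclins and other cell cycle genes and restrains the division of newborn heart muscle cells. Of the 4 members listed here, 1 fell and 3 did not pass, beside 6.76% of all 222 that fell. A further miRNA with this seed, miR-322, is listed with its own cluster and was at -0.033 ± 0.049 (adjusted p = 0.67). miR-497 read 50.5, 56.5, 52.2 and 52.3 in HHR and 69.6, 64.2, 66.5 and 59.9 in NHR, a fall of 0.30 ± 0.061 (1.23-fold, adjusted p = 0.018). Its gene neighbour miR-195 was at -0.29 ± 0.077, almost the same size, with an adjusted p of 0.055. The brighter miR-16 and miR-15b, from another cluster, were at -0.090 ± 0.053 (adjusted p = 0.28) and -0.029 ± 0.059 (adjusted p = 0.74). The list's median of -0.19 turned positive with the percentile over all probes (0.057) and with no scaling (0.067). miR-497 ended as a call without HHR replicate 3 or 4 or NHR replicate 3 (adjusted p up to 0.11), and it held under 1 of the 4 other scalings.

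The remaining calls were small. miR-126, the endothelial miRNA hosted by Egfl7 that supports signalling by vascular growth factors, read 1034, 963.7, 1008 and 988.9 in HHR and 1176, 1116, 1132 and 1115 in NHR (fall of 0.18 ± 0.042, 1.14-fold, adjusted p = 0.031). miR-181d, of a family best known in lymphocytes, read 45.8, 48.3, 46.0 and 45.8 in HHR and 54.1, 51.7, 52.4 and 51.4 in NHR (fall of 0.17 ± 0.041, 1.13-fold, adjusted p = 0.036). miR-326, within the arrestin gene Arrb1, fell by 0.26 ± 0.063 (adjusted p = 0.037), from 8.24 to 9.09 in NHR to between 6.87 and 8.10 in HHR, and was well above background on 1 array of each strain. Relative to the median of all 222, miR-126 differed by -0.098, miR-181d by -0.086 and miR-326 by -0.18. None of these 3 was called under any of the 4 other scalings, and miR-126 (0.062 and 0.071) and miR-181d (0.073 and 0.083) turned positive with the percentile over all probes and with no scaling. Leaving out 1 array ended the call of miR-126 for HHR replicates 3 and 4 and NHR replicates 2 and 3, that of miR-181d for these and NHR replicate 4, and that of miR-326 for all arrays but HHR replicate 2 and NHR replicate 2. The highest adjusted p among these was 0.20.

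**Figure D4:**
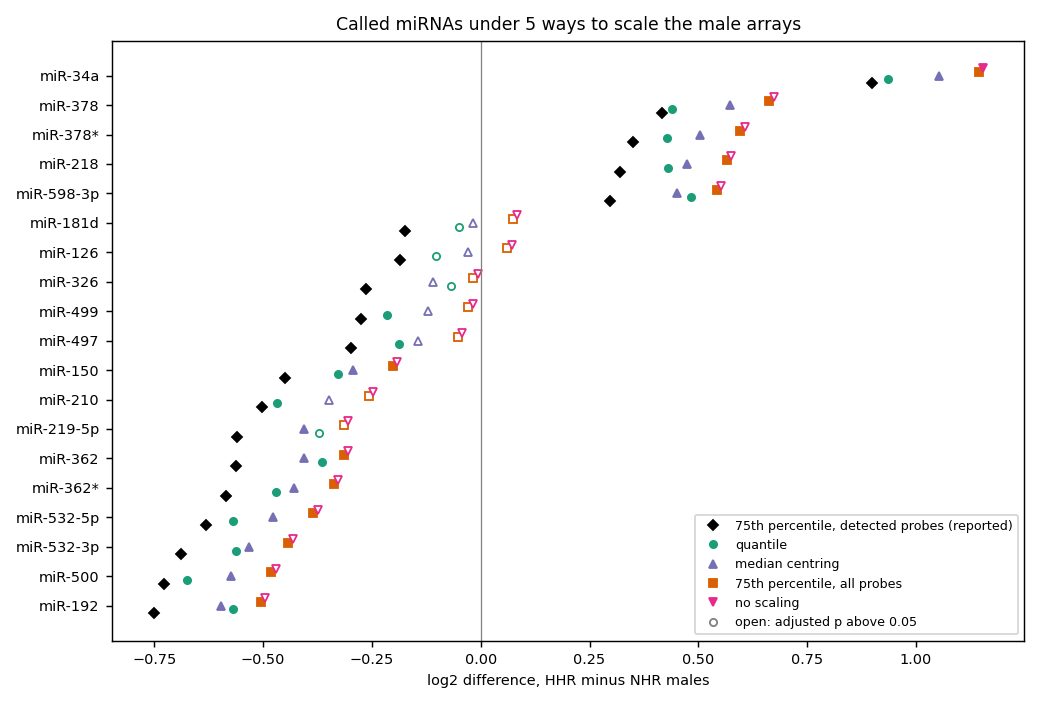
Log2 difference HHR minus NHR (x axis) of 19 called miRNAs (y axis; miR-466b is left out for its range) under the reported scaling (black) and 4 others (coloured), with open symbols where the adjusted p was above 0.05. miR-34a stays called throughout, while miR-181d, miR-126 and miR-326 stay called under the reported scaling alone; miR-192 and miR-219-5p are measured differences of signals near background.

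miRNAs known from other cells of the heart were set beside these results. Among leukocyte miRNAs, miR-150, which acts on Myb in lymphocytes, read 31.0, 30.8, 32.7 and 30.7 in HHR and 46.9, 40.8, 44.0 and 39.5 in NHR. All HHR arrays were below all NHR arrays (fall of 0.45 ± 0.062, 1.36-fold, adjusted p = 0.0033). Of the 4 leukocyte miRNAs in the set only miR-150 fell, beside 6.76% of all 222. This call held under 3 of the 4 other scalings and was lost with no scaling. It was also lost with the total gene signal, with a normexp background, in the authors' deposited table and within each slide. The other 3 leukocyte miRNAs in the set did not pass: miR-223 of myeloid cells was at -0.40 ± 0.17 (adjusted p = 0.16), miR-146a at -0.22 ± 0.072 (adjusted p = 0.11) and miR-142-3p at -0.068 ± 0.14 (adjusted p = 0.74). The summed signal of the 4 lay between 143.2 and 149.6 in HHR and between 159.8 and 203.2 in NHR, the median difference was -0.31 and stayed negative under the 4 other scalings, and miR-142-5p was detected on no male array. In bulk tissue fewer cells of a type and less RNA per cell cannot be told apart, and the part of leukocytes in the fall of miR-150 was not tested.

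Of the 4 endothelial miRNAs 1 fell, miR-126, beside 6.76% of all 222. The other arm of its hairpin, miR-126*, was at -0.22 ± 0.074 (adjusted p = 0.12). The other members were miR-130a at -0.017 ± 0.052 (adjusted p = 0.84) and the dim miR-221 at 0.19 ± 0.11 (adjusted p = 0.26). The summed signal of the 4 was 2701 to 2857 in HHR and 2867 to 3067 in NHR. Most of it was miR-130a, with means of 1741 in HHR and 1761 in NHR. The median of -0.10 turned positive under 3 of the 4 other scalings. With quantile normalization, median centring and the percentile over all probes, 1 member was called higher and none lower. None of the 3 fibroblast miRNAs passed: miR-199a-5p was at 0.22 ± 0.094 (adjusted p = 0.17), miR-214 at 0.18 ± 0.10 (adjusted p = 0.26) and miR-199a-3p at 0.14 ± 0.080 (adjusted p = 0.27). Their median was positive under all 5 scalings, and all 3 were called higher with median centring and with the percentile over all probes. Smooth muscle miR-143 and miR-145 were at -0.12 ± 0.046 (adjusted p = 0.15) and -0.17 ± 0.058 (adjusted p = 0.12), and erythroid miR-144 and miR-451 at 0.11 ± 0.17 (adjusted p = 0.68) and 0.031 ± 0.18 (adjusted p = 0.93).

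miRNAs reported to act in cardiac hypertrophy moved in part only. Of 10 reported to oppose it, 2 rose, miR-34a and miR-378, and none fell; the list was drawn up with earlier results of these data known and is no separate evidence of a direction. Those 2 of 10 stand beside 2.25% of all 222 that rose, and the other scalings gave 1 to 3 higher and none lower. Of 11 reported to promote it, 1 fell, miR-499, and none rose, beside 6.76% of all that fell. With the percentile over all probes and with median centring 2 of the 11 were called higher and none lower. miR-21, linked to fibrosis, was at -0.11 ± 0.050 (adjusted p = 0.19), and the calcineurin-linked miR-23a at -0.098 ± 0.044 (adjusted p = 0.19).

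No member was called in the let-7 family (8 members, median -0.033), the miR-30 family (5, -0.11), the miR-17~92 cluster with its paralogs (11, 0.0070), the miR-23, miR-27 and miR-24 clusters (5, -0.098), the miR-29 family (3, -0.18), the imprinted Dlk1-Dio3 cluster (19, -0.00083) or the H19 and Igf2 miRNAs (2, 0.028). The lowest adjusted p among these belonged to miR-29c at -0.18 ± 0.049 (0.065), miR-29a at -0.22 ± 0.074 (0.12) and let-7d at -0.12 ± 0.042 (0.13). With the percentile over all probes 3 let-7 members, 5 of the miR-17~92 cluster and its paralogs and 8 of Dlk1-Dio3 were called higher. Within the X-linked miR-322, miR-503 and miR-351 cluster, 6 of 7 members were positive, with a median of 0.10 and none called. miR-503, known to act on cyclins, was at 0.20 ± 0.066 (adjusted p = 0.11), with all HHR arrays (107.2 to 112.5) above all NHR arrays (86.2 to 106.4). The cluster's median stayed positive under the 4 other scalings, with 7 members called higher when the percentile was taken over all probes, 5 under median centring, 4 under quantile normalization and none without scaling.

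The brightest miRNAs were miR-133b, miR-1, miR-21, let-7a, miR-130a, let-7f, miR-16, let-7d, let-7c and let-7i, and none of these 10 was called. Members of the let-7 and miR-133 families are nearly identical in sequence, so their probes may share signal.

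The same comparison in 8 other pups, 4 HHR and 4 NHR females of the same age, used separate animals. There 76 of 222 miRNAs passed (34.2%), 12 higher and 64 lower, and the count was 41 without HHR female replicate 1. The female split became 102 higher to 18 lower with the percentile over all probes, 52 to 24 with median centring, 34 to 22 with quantile normalization, 29 to 29 with the total gene signal and 9 to 0 with no scaling. All 20 miRNAs called in males were measured in females with the same sign, where 195 of the 217 miRNAs tested in both sexes shared their sign (89.9%). Of the 20, 19 passed in females too under the reported scaling, all but miR-326 at -0.094 ± 0.12 (adjusted p = 0.51). The female median difference over the 222 was -0.12, and 0.31 with no scaling. Of the 76 female calls, 41 stayed with the total gene signal, 36 with median centring and 34 with quantile normalization. With the percentile over all probes 29 stayed, and with no scaling 9. miR-34a differed by 1.01 ± 0.075 in females, miR-378 by 0.40 ± 0.058 and miR-218 by 0.43 ± 0.057, and the falls were 0.70 ± 0.046 in miR-500, 0.56 ± 0.057 in miR-532-5p and 0.62 ± 0.045 in miR-150. miR-188, not called in males, passed in females as lower in HHR (adjusted p = 0.0032), as did miR-195 at -0.40 ± 0.043 and miR-223 at -0.54 ± 0.071.

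Whether the strain difference itself differed between the sexes was tested on all 16 arrays with limma, and 0 of the 222 passed (0%), with 8 at an unadjusted p under 0.05. The smallest p belonged to miR-423*, at 0.16 in males and -0.24 in females, miR-30e*, at 0.048 and -0.12, and miR-15b, at -0.029 and -0.17 (adjusted p = 0.92 for each); miR-423* was well above background on no male array. A miss in this test does not show that the sexes respond alike.

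**Figure D5:**
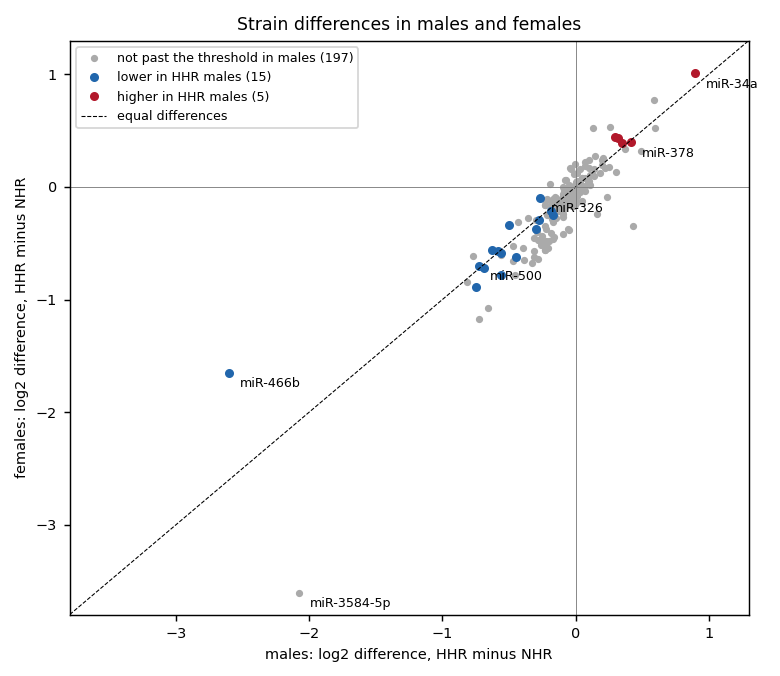
Log2 difference HHR minus NHR in males (x axis) against the same in females (y axis) for the 217 miRNAs tested in both; red and blue points are those called higher or lower in males, and the dashed line marks equal differences. The 20 called miRNAs lie in the same quadrant in both sexes, with miR-326 nearest to 0 in females.

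Slide 1 held replicates 1 and 2 of both strains and slide 2 replicates 3 and 4. All 20 called miRNAs had the same sign on both slides, as did 171 of the 222 (77.0%). In all 20 every HHR array lay on the same side of every NHR array, so their signs had to be equal on both slides. The equal signs of the 20 are therefore no separate test of the calls. Within slide 1 and slide 2 miR-34a differed by 0.92 and 0.88, miR-378 by 0.50 and 0.34, miR-500 by -0.73 and -0.73 and miR-532-5p by -0.62 and -0.64. Leaving out the dim NHR replicates 1 and 3, so that the 6 arrays left were of like brightness, gave 16 calls, 7 higher and 9 lower, and 13 of these were among the 20; the median difference over the 222 was then 0.00053. The 7 calls lost were miR-210 (adjusted p = 0.084), miR-497 (0.13), miR-499 (0.051), miR-598-3p (0.18), miR-126 (0.29), miR-181d (0.16) and miR-326 (0.11).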

How the data were processed

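Total RNA of 8 male hearts was labelled with Cy3 and hybridised, 1 array per animal with no pooling, per the labels' protocols. The authors deposited the scanner output: per the file headers, Agilent Feature Extraction 10.7.3.1 gave processed intensity values on a linear scale after background subtraction, with no scaling between arrays, and the headers name the rn4 build. The detection flags are other values in the same deposited output. A table of log2 values that the authors deposited as well (limma is named in the submitters' processing notes) served as an alternative; its column medians were 6.13 to 6.15, and for its background correction, scaling and centring the sources used here give nothing. Set against the levels used here, its strain differences had a slope of 0.56 over the 111 brighter and 0.14 over the 111 dimmer miRNAs.

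Spots marked as outliers (358 to 445 of 13540 per array) and controls were dropped, the remaining spots of each probe were averaged, arrays were scaled, the 1 to 4 probes of a miRNA were averaged, signals were raised to a floor of 1.66 (0.73 on the log2 scale), and log2 was taken. limma 3.58.1 in R 4.3.3 was fitted to the 8 male arrays with 1 mean per strain; the script was tested on simulated data. The number of arrays limits the precision (median SE 0.078). Where all arrays of a strain were not well above background, a fold is a bound on the means, with no error attached.

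The members and lists were chosen with earlier results of these data known. Named were the called miRNAs (up to 12 each way by size), up to 3 called of each of 22 lists or else the 2 with the smallest p, the 10 brightest, the 3 with the smallest interaction p, and miR-1, miR-133a, miR-208, miR-208b-3p and miR-499; miR-3584, miR-466b-1*, miR-34c, miR-128 and other single miRNAs were added after their values were seen. Alternatives covered signal column, background, scaling, probe summary, filter, floor, moderation, blocks, samples and each array left out. The normexp alternative used spot medians in place of spot means, which were not used here. Array brightness as a covariate and the arrays of like brightness were added after seeing the data.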

Additional observations from a re-analysis of the deposited data

Results flagged for a closer look

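In groups of 4 arrays, 4 of 116 groups looked at held an array far from the other 3 for its spread; chance alone flags about 1 in 20. miR-150 read 32.7 on HHR male 3, above the other HHR arrays at 30.7 to 31.0. miR-181d read 48.3 on HHR male 2, above 45.8 to 46.0. miR-362* read 29.2 on HHR male 3, below 30.1 to 30.2. miR-423* read 4.86 on HHR male 1, below 5.49 to 5.50. In the 3 called ones (miR-150, miR-181d and miR-362*) that array still lay below all NHR arrays.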

How the results depend on the processing

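Against 20 miRNAs called in males (median difference -0.087), other settings gave 12 with the total gene signal (6 higher, 6 lower), 8 with a normexp background (2 and 6), 58 with the percentile over all probes (49 and 9), 34 with quantile normalization (20 and 14), 33 with median centring (24 and 9), 3 with no scaling (2 and 1), and 45 in a fit of all 16 arrays (9 and 36, 19 of them among the 20). The authors' deposited table gave 0 with limma, with 12 at an unadjusted p under 0.05. Within slide 1 limma called 0 (28 at an unadjusted p under 0.05) and within slide 2 it called 6, from 2 arrays a strain. Leaving out each array gave 15 to 22. Same-numbered arrays of the strains deviated together at r = 0.26, -0.090, 0.17 and 0.51. HHR replicates 1, 3 and 4 correlated best with their own number in NHR, and HHR replicate 2 with NHR replicate 1 (0.41). These few values cannot settle whether the numbers pair the arrays. The replicate block gave 13 calls (2 higher and 11 lower). Without the slide block and with it the counts were 20 and 22. In females the 76 became 120 with the percentile over all probes, 9 with no scaling, 3 in the authors' table, and 41 to 74 with each array left out. The interaction gave 0 calls in each setting run.

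The difference in brightness turned to -0.053 with the percentile over all probes. The difference in detected miRNAs per array, HHR minus NHR, reported as 3, was -13 within slide 1, 19 within slide 2 and -2.5 to 10.5 with each array left out. Of the 20 called miRNAs, miR-34a and miR-466b were called under all 4 other scalings, and 3 changed sign in any setting: miR-126 and miR-181d as given next, and miR-326. The following log2 differences had a sign opposite to the reported one; the cause was not tested, beyond the shift of all miRNAs by up to 0.26 between scalings. With the percentile over all probes the values were let-7a 0.14, let-7c 0.24, let-7d 0.13, let-7f 0.20, let-7i 0.13, miR-1 0.16, miR-126 0.062, miR-130a 0.23 and miR-133a 0.16. They were further miR-133b 0.075, miR-143 0.13, miR-145 0.077, miR-15b 0.22, miR-16 0.16, miR-181d 0.073, miR-208b-3p 0.15, miR-21 0.14 and miR-23a 0.15. The rest were miR-24 0.12, miR-29a 0.026, miR-29c 0.070, miR-30c 0.12, miR-30e 0.11 and miR-483 0.10. With median centring the values were let-7a 0.053, let-7c 0.15, let-7d 0.036, let-7f 0.11, let-7i 0.036, miR-1 0.067, miR-130a 0.14, miR-133a 0.068 and miR-143 0.038. They were further miR-15b 0.13, miR-16 0.064, miR-208b-3p 0.057, miR-21 0.044, miR-23a 0.057, miR-24 0.030, miR-30c 0.024, miR-30e 0.020 and miR-483 0.011. With no scaling the values were let-7a 0.15, let-7c 0.25, let-7d 0.14, let-7f 0.21, let-7i 0.14, miR-1 0.17, miR-126 0.071, miR-130a 0.24 and miR-133a 0.17. They were further miR-133b 0.085, miR-143 0.14, miR-145 0.087, miR-15b 0.23, miR-16 0.17, miR-181d 0.083, miR-208b-3p 0.16, miR-21 0.15 and miR-23a 0.16. The rest were miR-24 0.13, miR-29a 0.036, miR-29c 0.080, miR-30c 0.13, miR-30e 0.12 and miR-483 0.11. In the authors' deposited table the values were let-7a 0.15, let-7c 0.24, let-7d 0.14, let-7f 0.21, let-7i 0.13, miR-1 0.17, miR-126 0.079, miR-130a 0.24 and miR-133a 0.13. They were further miR-133b 0.10, miR-143 0.13, miR-145 0.027, miR-15b 0.21, miR-16 0.18, miR-181d 0.018, miR-208b-3p 0.029, miR-21 0.14 and miR-23a 0.14. The rest were miR-24 0.14, miR-29a 0.014, miR-29c 0.028, miR-30c 0.12, miR-30e 0.11, miR-483 0.049 and miR-92b 0.010. With quantile normalization the values were let-7a 0.00097, let-7c 0.051, let-7f 0.0018, miR-1 0.014, miR-130a 0.049, miR-15b 0.027 and miR-208b-3p 0.093. With the total gene signal the values were let-7c 0.074, let-7f 0.034, miR-130a 0.061, miR-15b 0.049, miR-208b-3p 0.080 and miR-326 0.28. With brightness as a covariate the values were let-7c 0.044, miR-130a 0.011, miR-15b 0.011, miR-451 -0.041 and miR-483 0.0078. On arrays of like brightness the values were let-7c 0.072, miR-130a 0.031, miR-15b 0.038, miR-451 -0.013, miR-483 0.064 and miR-92b 0.039. With normexp the values were let-7c 0.0021, miR-30e* -0.0061 and miR-423* -0.069. For let-7c the value was 0.0039 with log2 probe means, 0.0052 with array weights, 0.0013 with all 16 arrays and 0.0067 within slide 2. miR-130a was at 0.031 within slide 1, and miR-144 at -0.046 and miR-451 at -0.023 within slide 2. With each array left out let-7c ranged from -0.037 to 0.046, miR-15b from -0.063 to 0.0080, miR-130a from -0.058 to 0.015 and miR-451 from -0.068 to 0.16. With a floor 4 times higher the difference of miR-423* was 0, since all its signals lay under that floor.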

Other observations

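A few miRNAs outside the calls were spread widely among the NHR males, with their highest signals on NHR replicates 1 and 3, the arrays that were dimmest before scaling. They were named after their values were seen. miR-1224 read 497.8, 294.4, 1105 and 321.1 in NHR and 294.4 to 373.7 in HHR (limma, adjusted p = 0.45). miR-494 read 51.5, 39.3, 118.3 and 40.9 in NHR and 39.3 to 50.1 in HHR (adjusted p = 0.55). miR-211* read 15.01, 9.37, 20.8 and 13.3 in NHR and 6.99 to 10.4 in HHR (adjusted p = 0.11). In all 3 the highest of the 8 arrays was NHR replicate 3, and the part of array brightness was not tested.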
